A study of Mus musculus with 6 samples.

Results

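The 10 genes described here encode the Slit ligands (Slit1, Slit2, Slit3), their Robo receptors (Robo1, Robo2), netrins (Ntn1, Ntn4) and netrin receptors (Dcc, Unc5b, Unc5c). They were taken by name out of 18193 genes that the platform annotation names. The annotation gives them 21 probe sets, each naming only 1 of these genes, of 45101 on the array. The probe set that read highest on average over all 6 arrays stood for its gene. Robo2, with a mean of 3.30 at its only probe set, lay below the mean of 5 under which a probe set was left untested. The 9 other genes were tested, with Dcc (5.38) and Slit1 (5.56) nearest to that limit.

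RNA came from the retinal pigment epithelium (RPE), a pigmented sheet of cells that lies against the outer face of the neural retina, of mouse embryos at embryonic day 13.5. An albino genotype (3 arrays) was set against a pigmented control genotype (3 arrays), with each array holding tissue pooled from 3 to 4 littermates. Neither the gene behind the albinism nor a mouse strain is stated. Per the labels, cornea, lens, neural retina and extraocular tissue were removed in dissection, though another label calls the sample the whole eye region, and replicates are biological. All values are log2 RMA expression (background-corrected, quantile-normalized, 1 value per probe set), so a difference of 1 is a doubling, and probe sets differ in affinity, so levels of different genes are not ranked.

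Slits are large secreted proteins that bind Robo receptors, and the signal classically repels growing axons and migrating cells. Netrins are laminin-related secreted proteins, of which netrin-1 attracts through DCC and repels through UNC5 receptors. In the developing eye these cues guide the axons of retinal ganglion cells and the growth of vessels, and netrin-1 at the optic disc guides axons out of the eye.

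RPE identity genes were present, with 14 of 15 listed genes at a mean of 5 or more, though Rpe65, the retinoid isomerase gene of mature RPE, was below it at 3.07 to 3.49 on all 6 arrays. Genes of other tissues read on every array too. The periocular mesenchyme list had array means of 10.38 to 10.62, the endothelial list 7.98 to 8.13 and the neuron list 6.37 to 6.91. Skeletal muscle markers had the largest genotype difference of the 11 marker lists, with all 12 higher in albino pools and array means of 8.44 to 9.13 in albino against 7.04 to 7.91 in pigmented pools. By replicate number, the RPE identity list differed by -0.14, -0.23 and -0.041, with 2 of its 15 genes higher in albino pools. In the same order, the neural retina progenitor list differed by -0.32, -0.28 and -0.26. The 2 optic stalk genes differed by -0.55, -0.27 and -0.17, and the macrophage list by 0.16, 0.15 and 0.15. The lens list was lowest on albino replicate 3, at 5.41 against 6.59 to 6.98 on the other arrays. The part of these tissues in the results was not tested. The arrays numbered 1 of both genotypes stood apart from the other 4 along the first principal component, which held 68.9% of the variance. Fewer cells of a type and less RNA per cell cannot be told apart in such pools. The number of arrays limits the precision.

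Slit2 and Slit3 each contain a copy of the gene for miR-218, a microRNA known to repress Robo1 and Robo2, so the ligand loci also hold a regulator of their receptors. Its mature sequences are shown for that reason, with the seed (bases 2 to 8 from the 5′ end) in capitals, from RefSeq on GRCm38.p6. The 5p arm is the same at both loci, chr5:48223966-48223986 in Slit2 and chr11:35616840-35616860 in Slit3, both on the plus strand. The 3p arms, at chr5:48224005-48224026 and chr11:35616882-35616903 on the plus strand, have different seeds. Levels of miR-218 were not analysed here.
mmu-miR-218-5p: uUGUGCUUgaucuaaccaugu
mmu-miR-218-1-3p: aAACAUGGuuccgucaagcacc
mmu-miR-218-2-3p: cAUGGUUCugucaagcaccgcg

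None of the 9 tested genes passed the threshold of 0.05 for the adjusted p in limma, where 0% of 23591 probe sets passed. Before adjustment 2 of the 9, Ntn1 and Slit2, had a limma p under 0.05, both higher in albino pools, where 4.79% of 12098 genes had such a p. With the replicate number as a block there were 4, with Ntn4 and Unc5b added on the lower side, where 16.9% of genes had such a p. Of the 9 genes, 5 had a higher mean in albino pools, against 64.8% of all genes tested. Their differences ranged from -0.21 to 0.47 with a median of 0.13, beside a median of 0.043 over all genes, whose 5th and 95th percentiles were -0.20 and 0.27.

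**Figure D1:**
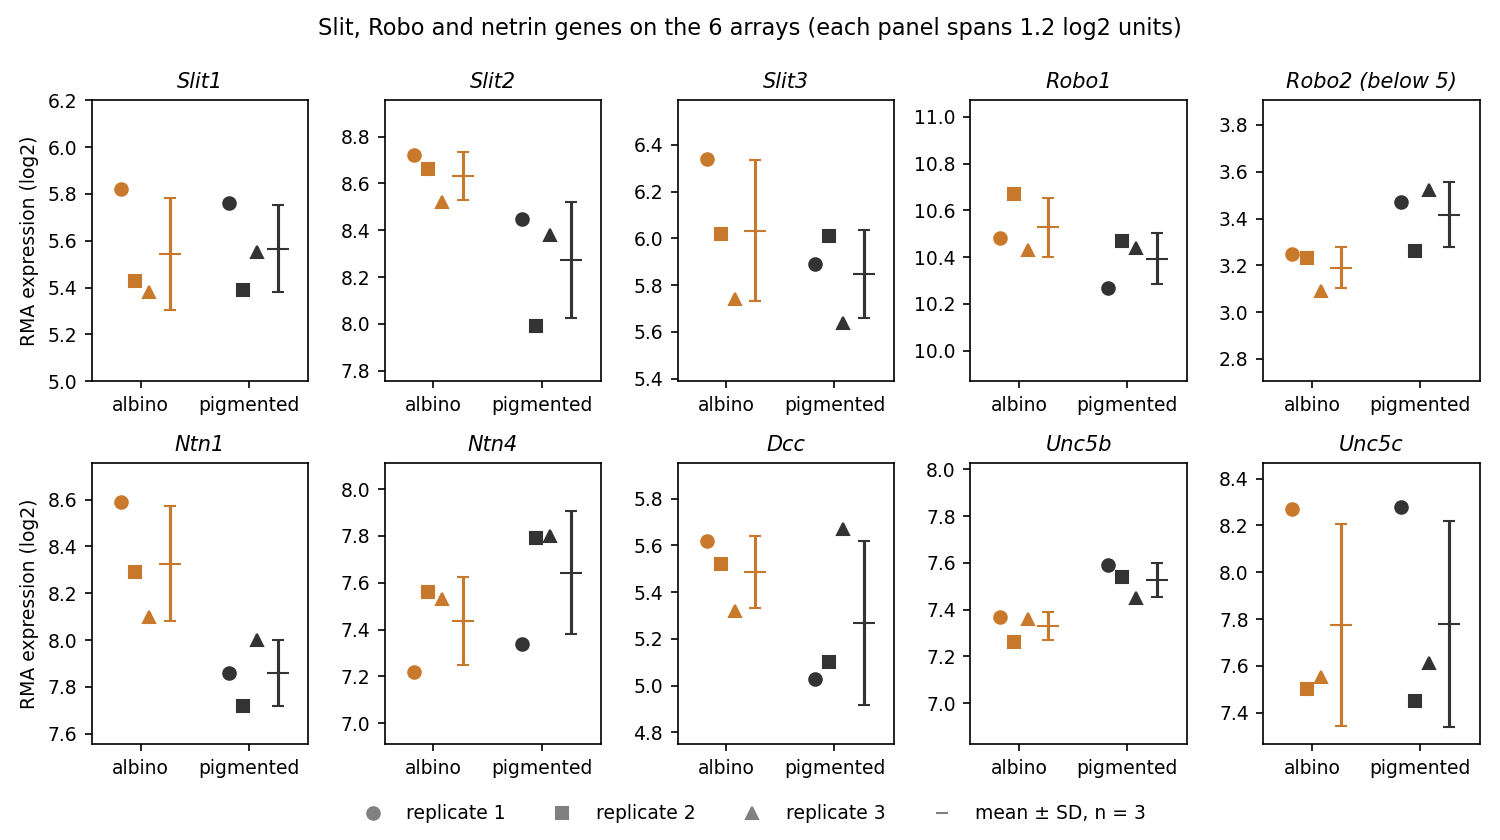
RMA expression (log2) of the 10 genes on the 3 albino and 3 pigmented arrays, with a marker for each replicate number and the mean ± SD (n = 3) beside the points; each panel spans 1.2 log2 units. The genotypes separate for Slit2, Ntn1 and Unc5b among the tested genes, and the arrays numbered 1 stand high for Unc5c in both genotypes.

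The region before the start of transcription is shown for Slit2 and Unc5b, the genes with separate genotypes for which the RefSeq table (GRCm38.p6) held it. Each run is the 250 bases before a transcription start of that table, 5′ to 3′ on the gene's strand, from chr5:47982905-47983154 (plus strand) for Slit2 and chr10:60831582-60831831 (minus strand) for Unc5b. The start used for Slit2 lies inside the annotated span of the gene, downstream of its first base. Capitals mark GGGCGG on either strand, the letters of the GC box, and TATAAA on either strand, the letters of the TATA box.
Slit2: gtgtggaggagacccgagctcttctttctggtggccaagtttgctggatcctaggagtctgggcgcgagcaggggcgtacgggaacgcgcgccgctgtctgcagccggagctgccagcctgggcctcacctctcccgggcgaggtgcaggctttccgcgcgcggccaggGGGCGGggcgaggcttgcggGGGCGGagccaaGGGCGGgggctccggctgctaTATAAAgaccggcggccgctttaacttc
Unc5b: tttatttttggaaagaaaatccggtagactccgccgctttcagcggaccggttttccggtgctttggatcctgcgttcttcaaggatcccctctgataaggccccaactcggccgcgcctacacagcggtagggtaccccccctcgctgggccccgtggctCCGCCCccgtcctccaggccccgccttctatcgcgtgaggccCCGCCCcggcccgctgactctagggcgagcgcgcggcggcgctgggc

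The Slit2 run held 3 GC boxes and a TATA box at -28 to -23 from the start, and the Unc5b run held 2 GC boxes and no TATAAA. Their G and C content was 69.6% and 66.8%, beside a median of 52.4% over 32851 windows of the same length. The table held 7 of the 10 genes. Of the 6 with a single window (Slit2, Slit3, Robo1, Ntn4, Unc5b and Unc5c), 4 held GGGCGG, as 32.7% of all windows did, and 1 held TATAAA, as 12.4% did. The letters CANNTG, a general form of the E-box of helix-loop-helix factors, were in 1 of the 6 (Robo1), beside 66.2% of all windows. Every window of Robo2, which is outside the 6, held them as well. CCAAT was in 0 of 6, beside 33.8%. Each motif was counted on both strands, whether or not it overlapped another. A match of letters is a description of the window, not a binding site.

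Among the ligands, Ntn1, the gene of netrin-1, had the largest difference of the 9. It read 8.59, 8.29 and 8.10 for albino replicates 1 to 3, and 7.86, 7.72 and 8.0 for pigmented replicates 1 to 3. Values of later genes are given in the same order. All 3 albino values lay above all 3 pigmented values, though the lowest albino and highest pigmented values were close. The means were 8.33 ± 0.25 and 7.86 ± 0.14 (SD, n = 3 each), a difference of 0.47 (SE 0.15, 95% confidence interval 0.11 to 0.83) or 1.38-fold. It did not pass after adjustment (limma adjusted p = 0.946, unadjusted 0.0186). Its dim second probe set, with a mean of 3.45, gave 0.21.

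Slit2, whose protein is known to repel retinal ganglion cell axons, read 8.72, 8.66 and 8.52 on the albino arrays. The pigmented arrays read 8.45, 7.99 and 8.38, all below those, with pigmented replicate 2 the lowest. Means were 8.63 ± 0.10 and 8.27 ± 0.25 (SD, n = 3 each), a difference of 0.36 (SE 0.14, 95% confidence interval 0.014 to 0.71) or 1.28-fold (limma adjusted p = 0.999, unadjusted 0.0435). The 2 other Slit2 probe sets were also higher in albino pools, by 0.58 (SE 0.28) at a mean of 5.22 and by 0.46 at a mean of 3.78. Without pigmented replicate 2 the difference was 0.22, and it was 0.16 with the mean of 3 Y-linked genes as a covariate. That mean was 7.06 to 7.99 for the albino pools and 7.39, 2.32 and 5.98 for pigmented replicates 1 to 3, with pigmented replicate 2 far below the rest.

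Skeletal muscle markers, like both of these genes, were higher in albino pools. Between arrays of the same number, albino minus pigmented was 0.73, 0.57 and 0.10 for Ntn1 and 0.27, 0.67 and 0.14 for Slit2. The muscle list differed by 1.75, 2.10 and 0.53 in the same order, so the arrays numbered 3 had the smallest difference in all of them. The largest was at number 2 for the muscle list and Slit2, but at number 1 for Ntn1. A lowest value at number 3 was not particular to muscle. The neuron list (0.29, 0.41 and -0.29) and Robo1 (0.21, 0.20 and -0.01) had it too. The part of muscle tissue in the Ntn1 and Slit2 values was not tested. Without both arrays numbered 1, Ntn1 differed by 0.34 and Slit2 by 0.41. Leaving out each array gave 0.335 to 0.58 for Ntn1, and with the Y-linked covariate it differed by 0.40 (limma unadjusted p = 0.092).

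Slit3, the third ligand gene of the family, read 6.34, 6.02 and 5.74 (albino) and 5.89, 6.01 and 5.64 (pigmented). The genotypes overlapped, and the difference of 0.19 (95% confidence interval -0.24 to 0.61) rested on albino replicate 1, without which it was 0.033. It was 0.083 without pigmented replicate 3, and 0.33 without albino replicate 3. Slit1, which is known from neural tissue including the retina, read 5.82, 5.43 and 5.38 (albino) and 5.76, 5.39 and 5.55 (pigmented). Its genotypes overlapped as well, with a difference of -0.023 (95% confidence interval -0.40 to 0.36). The arrays numbered 1 were the highest of each genotype, and the sign turned without albino replicate 2 (0.033), albino replicate 3 (0.058) or pigmented replicate 1 (0.073). A dim second Slit1 probe set, with a mean of 4.12, gave -0.24 with all albino values below all pigmented values.

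Ntn4, which encodes the basement membrane protein netrin-4, had a lower mean in albino than in pigmented pools, unlike Ntn1. It read 7.22, 7.56 and 7.53 (albino) and 7.34, 7.79 and 7.80 (pigmented). Replicate 1 was the lowest array of both genotypes, and within every number the albino array was lower, by -0.12, -0.23 and -0.27. The difference was -0.21 (SE 0.17, 95% confidence interval -0.60 to 0.19), and limma's unadjusted p was 0.255 without the replicate block and 0.0192 with it (adjusted p = 0.222 with it). The value was -0.10 without albino replicate 1, -0.13 without pigmented replicate 2 or pigmented replicate 3, and -0.36 without pigmented replicate 1. With the Y-linked covariate it was -0.051. The dim second probe set, with a mean of 4.10, gave -0.26, with all albino values below the pigmented ones.

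**Figure D2:**
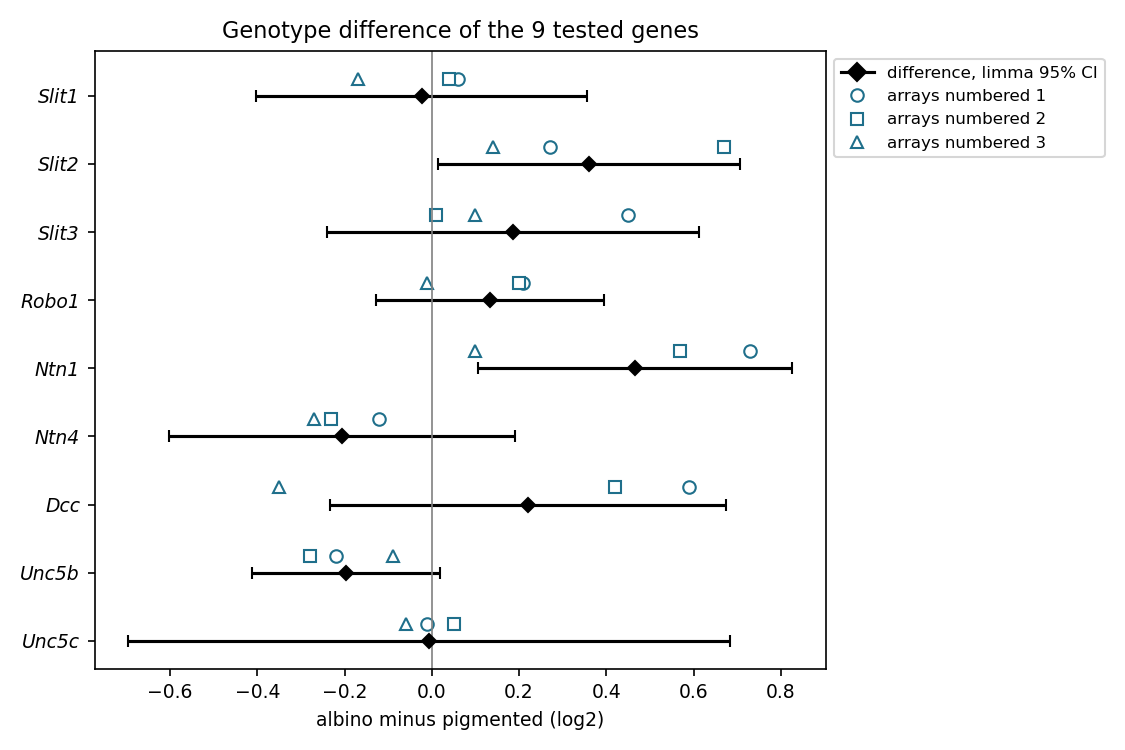
Albino minus pigmented (log2) of the 9 tested genes, as the limma difference with its 95% confidence interval (diamonds) and as the differences between arrays of the same number (open symbols). The intervals of Ntn1 (0.11 to 0.83) and Slit2 (0.014 to 0.71) lie above 0 before any adjustment, and the 7 others include 0.

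Among the receptors, Robo1, a Slit receptor gene, read 10.48, 10.67 and 10.43 (albino) and 10.27, 10.47 and 10.44 (pigmented). The genotypes overlapped and differed by 0.13 (SE 0.11, 95% confidence interval -0.13 to 0.39). The value was 0.062 without albino replicate 2, 0.072 without pigmented replicate 1 and 0.060 after median centring of the arrays. Its 2 other probe sets, both below a mean of 5, gave 0.12 and 0.25. Robo2, which encodes a receptor of the same family, read 3.25, 3.23 and 3.09 (albino) and 3.47, 3.26 and 3.52 (pigmented), near the bottom of the array's range. Its difference was -0.23, with all albino values below all pigmented values, though the nearest values, 3.25 and 3.26, were close. A probe set this dim does not show that the transcript was absent.

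Unc5b, a netrin receptor gene known from the tips of growing vessels, read 7.37, 7.26 and 7.36 (albino) and 7.59, 7.54 and 7.45 (pigmented). All albino values lay below all pigmented values. Means were 7.33 ± 0.06 and 7.53 ± 0.07 (SD, n = 3 each), a difference of -0.20 (SE 0.090, 95% confidence interval -0.41 to 0.018). It did not pass (limma adjusted p = 0.999, unadjusted 0.0671), also with the replicate block (adjusted p = 0.237, unadjusted 0.0282). The second Unc5b probe set gave -0.13 (SE 0.23), with pigmented replicate 1 as its lowest array at 6.79 and pigmented replicates 2 and 3 as its highest at 7.64 and 7.58. The endothelial list, whose 8 genes all lay above a mean of 5, had array means of 7.98 to 8.10 in albino and 8.03 to 8.13 in pigmented pools, a difference of -0.026. Its differences by replicate number were 0.0013, -0.15 and 0.070, and 3 of its 8 genes were higher in albino pools. Cldn5, the gene of an endothelial tight junction protein, was lower without overlap of the genotypes (-0.19), while Pecam1, which encodes an endothelial adhesion protein, was higher (0.15). The part of endothelial cells in the Unc5b values was not tested.

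Unc5c, a related netrin receptor gene, gave unlike results at its 2 probe sets. The brighter one read 8.27, 7.5 and 7.55 (albino) and 8.28, 7.45 and 7.61 (pigmented), so the arrays numbered 1 stood 0.75 above the others and the genotypes differed by -0.0067 (95% confidence interval -0.70 to 0.68). The second read 6.34, 6.39 and 6.36 (albino) and 6.03, 6.12 and 6.12 (pigmented). There the genotypes did not overlap and the arrays numbered 1 differed from the others by -0.063. The second probe set was higher in albino pools by 0.27 (SE 0.084, limma adjusted p = 0.923, unadjusted 0.0148), the smallest unadjusted p of all 13 probe sets of these genes that were tested. With the probe sets averaged, Unc5c differed by 0.13.

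Dcc, the attractive netrin receptor gene, read 5.62, 5.52 and 5.32 (albino) and 5.03, 5.10 and 5.67 (pigmented). Pigmented replicate 3 was the highest of all 6 arrays, so the genotypes overlapped, with a difference of 0.22 (SE 0.19, 95% confidence interval -0.23 to 0.67). Between arrays of the same number it was 0.59, 0.42 and -0.35. The list of 8 neuron markers differed by 0.29, 0.41 and -0.29 in the same order, with 7 of the 8 above a mean of 5, and its part in the Dcc values was not tested. Its members went both ways, with 4 of 8 higher in albino pools, among them Dcx (0.69) and Nefl (0.60), while Tubb3 was lower (-0.31). Array means of that list were 6.62 to 6.79 in albino and 6.37 to 6.91 in pigmented pools. The Dcc difference was 0.42 without pigmented replicate 3, 0.14 without pigmented replicate 2, 0.10 without pigmented replicate 1 and 0.035 without both arrays numbered 1. The 2 other Dcc probe sets disagreed, with 0.063 at a mean of 5.05 and -0.23 at a mean of 4.63. The arrays numbered 1 minus the others gave -1.16 at the first of these and 0.69 at the second.

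**Figure D3:**
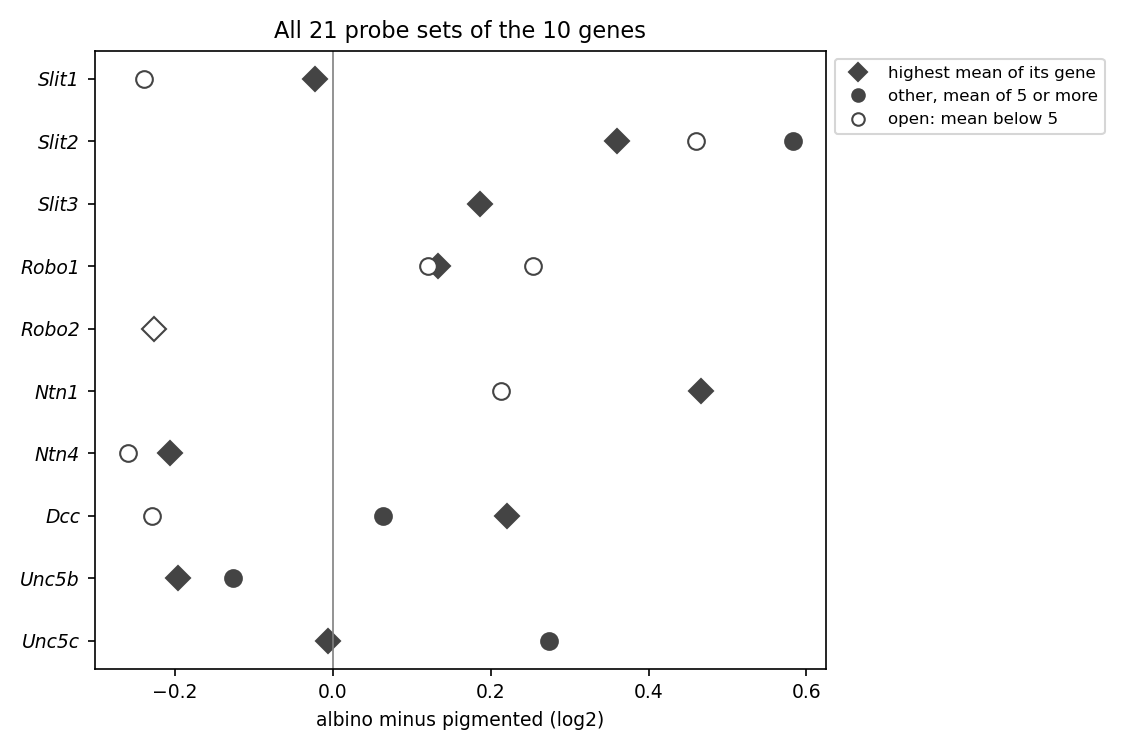
Albino minus pigmented (log2) at all 21 probe sets of the 10 genes, with diamonds for the probe set of highest mean and open symbols for means below 5. All probe sets of Slit2, Robo1 and Ntn1 lie above 0 and all of Slit1, Ntn4 and Unc5b below it, while those of Dcc and Unc5c lie on both sides.

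Of the 8 genes with more than 1 probe set, 6 had every probe set on 1 side of 0, namely Slit1, Slit2, Robo1, Ntn1, Ntn4 and Unc5b. The probe sets of a gene share the same pools, so they are no further replicates. All 3 albino arrays lay above all 3 pigmented arrays for 2 of the 9 tested genes, Slit2 and Ntn1, against 7.97% of all genes. They lay below for 1 of 9, Unc5b, against 3.38% of all genes. An exact permutation test of 3 arrays against 3 cannot give a two-sided p below 0.1. Within all 3 numbers, the albino array was higher for 3 of 9 (Slit2, Slit3 and Ntn1) where 30.7% of genes were, and lower for 2 of 9 (Ntn4 and Unc5b) where 13.0% were.

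These genes had a median range of 0.64 over the 6 arrays, beside 0.40 for all genes tested. No tested gene spanned more than 1 log2 unit at its representative probe set, the span set for a search for genes of like pattern, so none was made.

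Other genes of these pathways were taken from 3 lists of 67 genes, of which the annotation named 62 and 54 were tested. None passed the adjusted threshold in limma. Before adjustment 5 had a limma p under 0.05, all higher in albino pools, against 4.79% of all genes, and with the replicate block 8 did, against 16.9%. The medians of the lists were -0.057, 0.065 and 0.030, beside 0.043 over all genes.

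Relatives within the families had 1 of 7 tested genes higher and 6 lower, with 0 at an unadjusted limma p under 0.05. The 3 with the smallest p were Neo1, the gene of the DCC relative neogenin (-0.16, SE 0.096), the cell adhesion gene Dscaml1 (-0.14, SE 0.17) and the netrin gene Ntn5 (-0.14, SE 0.24). The sign for Neo1 turned when _x_at and _s_at probe sets were left out (0.060), and that for Ntn5 without albino replicate 1 (0.11). Robo3, Ntn3, Ntng2, Unc5d and Unc5cl were below a mean of 5 and were not tested.

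Other ligands, co-receptors and matrix partners had 11 of 16 tested genes higher. Rgmb, which encodes a ligand of neogenin, read 7.26, 7.28 and 7.28 (albino) and 6.81, 6.73 and 6.79 (pigmented). Its genotypes did not overlap, with a difference of 0.50 (SE 0.082, 95% confidence interval 0.30 to 0.69). It did not pass (limma adjusted p = 0.500, unadjusted 0.00063). No probe set of the table had a smaller adjusted p, but the muscle genes Myf5, Pax7 and Myog shared the same value. Myf5 (0.00041) and Pax7 (0.00043) had a smaller unadjusted limma p than Rgmb. Its 5 other probe sets gave -0.027 to 0.30, with 4 of 5 higher, and the average of its probe sets gave 0.30.

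Nell2, which encodes a secreted ligand of Robo3, differed by 0.49 (SE 0.15), with its second probe set at 0.15. Adgrl3, the latrophilin gene whose protein binds FLRT and UNC5 proteins, differed by 0.28 (SE 0.10), and its 5 other probe sets were all higher in albino pools, by 0.18 to 0.55. Of the 16 genes, these 3, chosen for their small p, had all albino arrays above all pigmented arrays, against 7.97% of all genes. In 1 of the 16 the albino arrays all lay below, against 3.38% of all genes, namely the syndecan gene Sdc1 (-0.16), which was named after its values were seen. By replicate number, Rgmb differed by 0.45, 0.55 and 0.49, Nell2 by 0.53, 0.79 and 0.15, and Adgrl3 by 0.33, 0.42 and 0.09. The muscle list was higher in the same albino pools by 1.46 (1.75, 2.10 and 0.53 by number), and its part in the values of these genes was not tested.

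Cytoplasmic effectors had 22 of 31 tested genes higher. Ablim3, which encodes an actin-binding LIM protein, had the largest difference of the 3 lists. It read 6.69, 6.50 and 5.75 (albino) and 5.48, 4.44 and 5.42 (pigmented), a difference of 1.2 (SE 0.35, limma adjusted p = 0.886). The Y-linked covariate reduced it to 0.78. As with Slit2, Ntn1 and the muscle list, the difference was smallest between the arrays numbered 3, at 1.21, 2.06 and 0.33 in order. The muscle list differed by 1.75, 2.10 and 0.53 in that order, also largest at number 2. The part of muscle tissue in the Ablim3 values was not tested.

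Trio, which encodes a cytoplasmic protein that acts downstream of DCC, differed by 0.40 (SE 0.15), and its other probe set with a mean of 5 or more gave 0.43, while its 4 dimmer ones gave -0.15 to 0.19. With the Y-linked covariate Trio differed by 0.22. Srgap3, the gene of a GTPase-activating protein that binds Robo receptors, differed by 0.24 (SE 0.13), or by 0.096 with that covariate. None of the 3 passed the threshold.

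**Figure D4:**
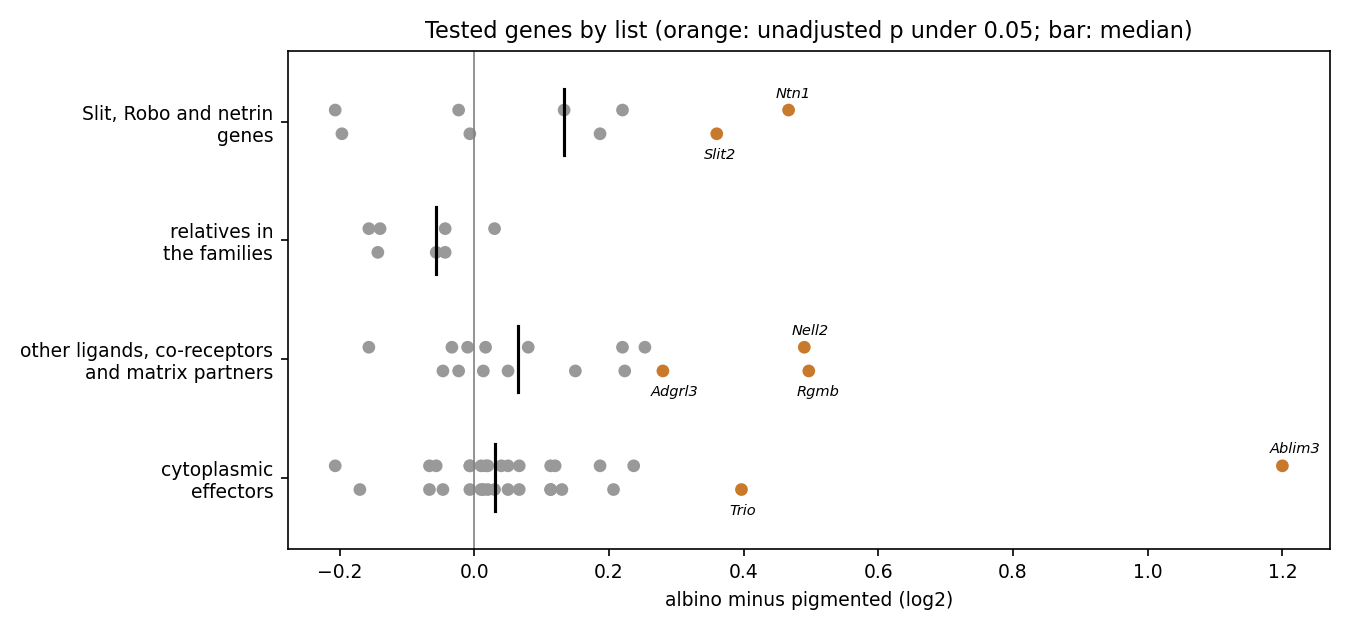
Albino minus pigmented (log2) of the tested genes, by list: the 9 Slit, Robo and netrin genes, 7 relatives, 16 other ligands and partners, and 31 effectors. Orange points have an unadjusted limma p under 0.05, bars are list medians, and Ablim3 (1.2) lies farthest to the right.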

How the data were processed

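The authors deposited log2 RMA expression values, made with Affymetrix Expression Console 1.1 and RMA per the submitters' processing notes, from biotin-labelled cRNA of 100 ng total RNA per the labels' protocols. No source used here tells if all 6 arrays went through RMA together. Quantile normalization makes every difference relative to the other probe sets. The array medians were 5.19 to 5.22.

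Gene names came from GEO's annotation of the platform. Control probe sets (64) and those with a mean below 5 were set aside, leaving 23591 probe sets and 12098 genes. Albino minus pigmented was fitted in limma 3.58.1 (R 4.3.3, lmFit and eBayes, two-sided), and p-values of all those probe sets were adjusted by Benjamini and Hochberg's method. A gene's test is that of its representative probe set. The pipeline was tested on simulated data whose changes were larger than the genotype differences reported here, so that test does not cover differences of this size. Named beyond the 10 genes were the 3 genes of each pathway list with the smallest p, since none passed. For a gene spanning over 1 log2 unit, the 2 genes of most similar pattern would have been added. Genes below the filter and marker genes were named beside the results.

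Replicate numbers are shared by both genotypes without saying what they share. Deviations from the genotype means correlated at 0.863, 0.687 and 0.448 within numbers 1, 2 and 3. Both arrays numbered 1 stood apart, and correlations between arrays of unlike number were not computed. These values therefore cannot show that arrays of the same number are pairs. The main fit was unpaired, and each limma p, SE and interval comes from it unless the block is named. Differences by replicate number and fits with the replicate block are given beside it. The genes and lists were chosen with earlier results of these data known.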

Additional observations from a re-analysis of the deposited data

How the results depend on the processing

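Each result was recomputed under 17 alternatives: the replicate block, 2 scalings, 2 filters, 2 treatments of probe sets, array weights, a block for the arrays numbered 1, their removal, a Y-linked covariate, and each array left out. No probe set tested under any of them passed the adjusted threshold. Robo2 was tested only with no filter. The 9 other genes gave 150 values, of which 48 equalled the reported difference, mostly because blocks and filters leave it as it is. Of the 102 others, 95 kept their sign and 7 did not. The sign turned for Slit1 without albino replicate 2, albino replicate 3 or pigmented replicate 1 (0.033 to 0.073, against -0.023), and leaving out each array gave -0.16 to 0.073. It turned for Unc5c (-0.0067) with probe sets averaged (0.13) and without the same arrays (0.11 to 0.24), and leaving out each array gave -0.26 to 0.24. The cause was not tested. With the Y-linked covariate the difference moved away from 0 for Slit3 (0.30), Robo1 (0.22), Slit1 (-0.17), Unc5b (-0.21) and Unc5c (-0.31). It moved toward 0 for Ntn1 (0.40), Slit2 (0.16), Dcc (0.19) and Ntn4 (-0.051).

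Of the 9 tested genes, those at an unadjusted limma p under 0.05 numbered 2, against 4 with the replicate block, array weights or a block for the arrays numbered 1, and 0 with the Y-linked covariate. Leaving out arrays gave 0 (without pigmented replicate 2) to 3 (without pigmented replicate 1). Over all probe sets the count of 1104 became 4243 with the replicate block, 731 with probe sets averaged, 3510 with array weights, 4952 with the block for arrays numbered 1, 3052 without those arrays and 687 with the Y-linked covariate. Leaving out arrays gave 567 to 1418. Of the 9 tested genes, those whose genotypes did not overlap numbered 3, and 3 to 5 with an array left out (5 without albino replicate 3) or 2 with probe sets averaged. Fewer arrays separate more easily, and the share of all genes was not computed under those settings. Pathway genes at an unadjusted limma p under 0.05 numbered 5, against 8 with the replicate block or array weights, 10 with the block for arrays numbered 1, 1 with the Y-linked covariate and 3 to 5 with an array left out. The replicate block changed no other call. Slit1, Slit3 and Dcc could not be recomputed under the filter at a mean of 6. Dim probe sets, such as that of Robo2, limit what can be said of a gene's level.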
